A study of Mus musculus with 12 samples.

Results

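The 2-oxoglutarate-dependent dioxygenases other than the TET enzymes were followed in regulatory T cells (Tregs) of mice that lacked transketolase in these cells and of mice given an ester of 2-oxoglutarate. The 45 genes were chosen by name, as known mouse enzymes of the family present in the expression table, from 17955 genes in all. They were sorted into 11 groups by what their products act on. Of the 45, 44 had enough reads to be tested, and P4ha2, a collagen prolyl hydroxylase subunit listed at 0 to 0.39 TPM, did not.

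RNA was sequenced from CD4+CD25+YFP+ cells sorted from spleen and lymph nodes of C57BL/6 mice at 7 weeks of age. Mice labelled wild type (WT) were Foxp3YFP-cre with TKT+/+, and mice labelled as Treg-specific knockouts (cKO) were Foxp3YFP-cre with TKTfl/fl, so both carried the Cre recombinase that the Foxp3 locus drives. Cre acts in this model where Foxp3 is expressed, and the same YFP marked the cells that were sorted. Each genotype was given vehicle or DMαKG (dimethyl 2-oxoglutarate) in drinking water, starting during the mother's pregnancy and lasting into adulthood. This gave 4 groups of 3 libraries each: WT with vehicle, cKO with vehicle, WT with DMαKG and cKO with DMαKG. The series' design text gives 3 mice per group, and the labels do not say whether mice of different groups were littermates.

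All enzymes of this family use iron(II), molecular oxygen and 2-oxoglutarate, and release succinate and carbon dioxide as they hydroxylate their substrate. A hydroxyl group placed on a methyl group makes it fall off as formaldehyde, which is how the Jumonji C (JmjC) proteins demethylate histones and the AlkB proteins demethylate nucleic acids. Other members hydroxylate proline, lysine, asparagine or histidine residues and leave the hydroxyl group in place. In T cells the family is known for linking metabolite and oxygen levels to chromatin and to the hypoxia-inducible factors (HIF). Transketolase works in the non-oxidative pentose phosphate pathway, and the data hold messenger RNA of the enzymes, not their activity or their cosubstrate.

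The libraries held 1.57e+07 to 1.89e+07 summed estimated counts. Tkt was at 102 to 194 CPM (estimated counts scaled to a common library size) in the 6 WT libraries and at 26.2 to 41.8 CPM in the 6 cKO libraries, in accord with the labels. Summed Treg markers were at 4053 to 6822 CPM. The highest sum, in library 3 of cKO with DMαKG, held Ctla4 at 3001 CPM. In that library Ctla4, Ikzf2, Tnfrsf18 and Cd3d were the highest of the 12. Foxp3, Cd4 and Cd3e were the lowest there, at 280, 644 and 159 CPM. Macrophage and monocyte markers summed to 41.2 to 174 CPM, dendritic markers to 66.5 to 133 CPM and B and plasma cell markers to 77.8 to 161 CPM. CD8 and NK cell markers summed to 29.7 to 48.5 CPM and fibroblast and stromal markers to 2.69 to 6.80 CPM. Library 3 of cKO with DMαKG stood apart from the others, as described with the comparison it enters. Each p-value below comes from edgeR's quasi-likelihood test on all 12 libraries, is adjusted by the Benjamini-Hochberg method over 12903 genes and was read against a threshold of 0.05. Fold changes are in log2 and carry their standard error (SE).

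No member passed the threshold in any of 7 comparisons: the genotypes under vehicle and under DMαKG, DMαKG and vehicle in WT and in cKO, the interaction of both factors, and each factor averaged over the other. The family was well expressed in these Tregs. Its median level per transcript length was 33.9 TPM, against 21.9 TPM over all genes tested, and 38 of the 45 were at 10 TPM or more. Levels in this and the next paragraphs are means over the 12 libraries in TPM, which corrects for transcript length.

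Histone demethylases made up most of the highest places. Of the 5 highest members, 4 were JmjC demethylases: Jmjd1c, a relative of the histone H3 lysine 9 demethylases, stood at 74.8 TPM, Kdm6b, which removes methyl groups from lysine 27 of H3, at 74.1 TPM, Kdm4a, which acts on lysines 9 and 36, at 74.0 TPM, and Kdm3b, which acts on lysine 9, at 73.5 TPM. These 4 levels lay between 73.5 and 74.8 TPM and did not differ beyond the spread between libraries. Riox2, a ribosomal histidine hydroxylase of the JmjC fold, came next at 68.0 TPM. The other lysine 9 demethylase, Kdm3a, was at 61.1 TPM. Kdm2b and Kdm2a, which bind unmethylated CpG islands and act on lysine 36, were at 59.2 and 55.6 TPM. Kdm4c and Kdm4b were lower than Kdm4a, at 35.1 and 31.0 TPM. The lysine 4 demethylases Kdm5a and Kdm5b were at 47.5 and 34.7 TPM. In the group whose PHD finger reads lysine 4 methylation, Phf2 was at 54.4, Kdm7a at 50.4 and Phf8 at 32.2 TPM.

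Among the other JmjC proteins, Jmjd6, a lysyl hydroxylase of splicing factors, was highest after Riox2 at 56.8 TPM. Jmjd8 was at 28.1, Riox1 (a ribosomal protein hydroxylase) at 16.7, Hspbap1 at 14.6, Jmjd4 (which hydroxylates a translation release factor) at 10.3 and Kdm8 at 5.89 TPM. The prolyl hydroxylases that mark HIF-α for degradation differed in level: Egln2 was at 54.7 and Egln1 at 49.8 TPM, above Egln3 at 10.6 TPM. Hif1an, the asparagine hydroxylase that blocks coactivator binding by HIF-α, was at 26.3 TPM. The collagen and endoplasmic reticulum (ER) hydroxylases were low apart from P4ha1, the collagen prolyl hydroxylase subunit at 46.0 TPM. The collagen lysyl hydroxylases Plod3, Plod1 and Plod2 were at 11.4, 6.65 and 4.71 TPM, the transmembrane prolyl hydroxylase P4htm was at 7.44 TPM, and P4ha2 was at 0.156 TPM.

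The AlkB proteins ranged from Alkbh6 at 62.9 to Alkbh2 at 10.9 TPM. Both erasers of N6-methyladenosine (m6A) in RNA were well expressed, Alkbh5 at 56.2 and Fto at 33.9 TPM. Alkbh3 and Alkbh2, which repair alkylated bases, were at 42.7 and 10.9 TPM. Alkbh1 was at 39.2, Alkbh4 at 26.1, the tRNA-modifying Alkbh8 at 21.1 and the mitochondrial Alkbh7 at 13.1 TPM. Of the remaining enzymes, Phyh, which starts the peroxisomal breakdown of phytanic acid, was at 57.7 TPM, Ogfod2 at 18.9, Ogfod1 (a ribosomal prolyl hydroxylase) at 14.0 and Ogfod3 at 3.94 TPM. Asph, an aspartyl hydroxylase of the ER, was at 0.828 TPM. Within a group, the SD of log2 CPM of the 44 tested members had a median of 0.19, against 0.22 over all genes tested, and ran from 0.07 for Kdm5a to 0.45 for Asph. The summed level of the 45 members was 1673 ± 46.6 TPM (SD, n = 3) in WT with vehicle and 1639 ± 156 TPM in cKO with vehicle. It was 1576 ± 115 TPM in WT with DMαKG and 1422 ± 239 TPM in cKO with DMαKG, and the libraries of these groups overlapped.

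**Figure D1:**
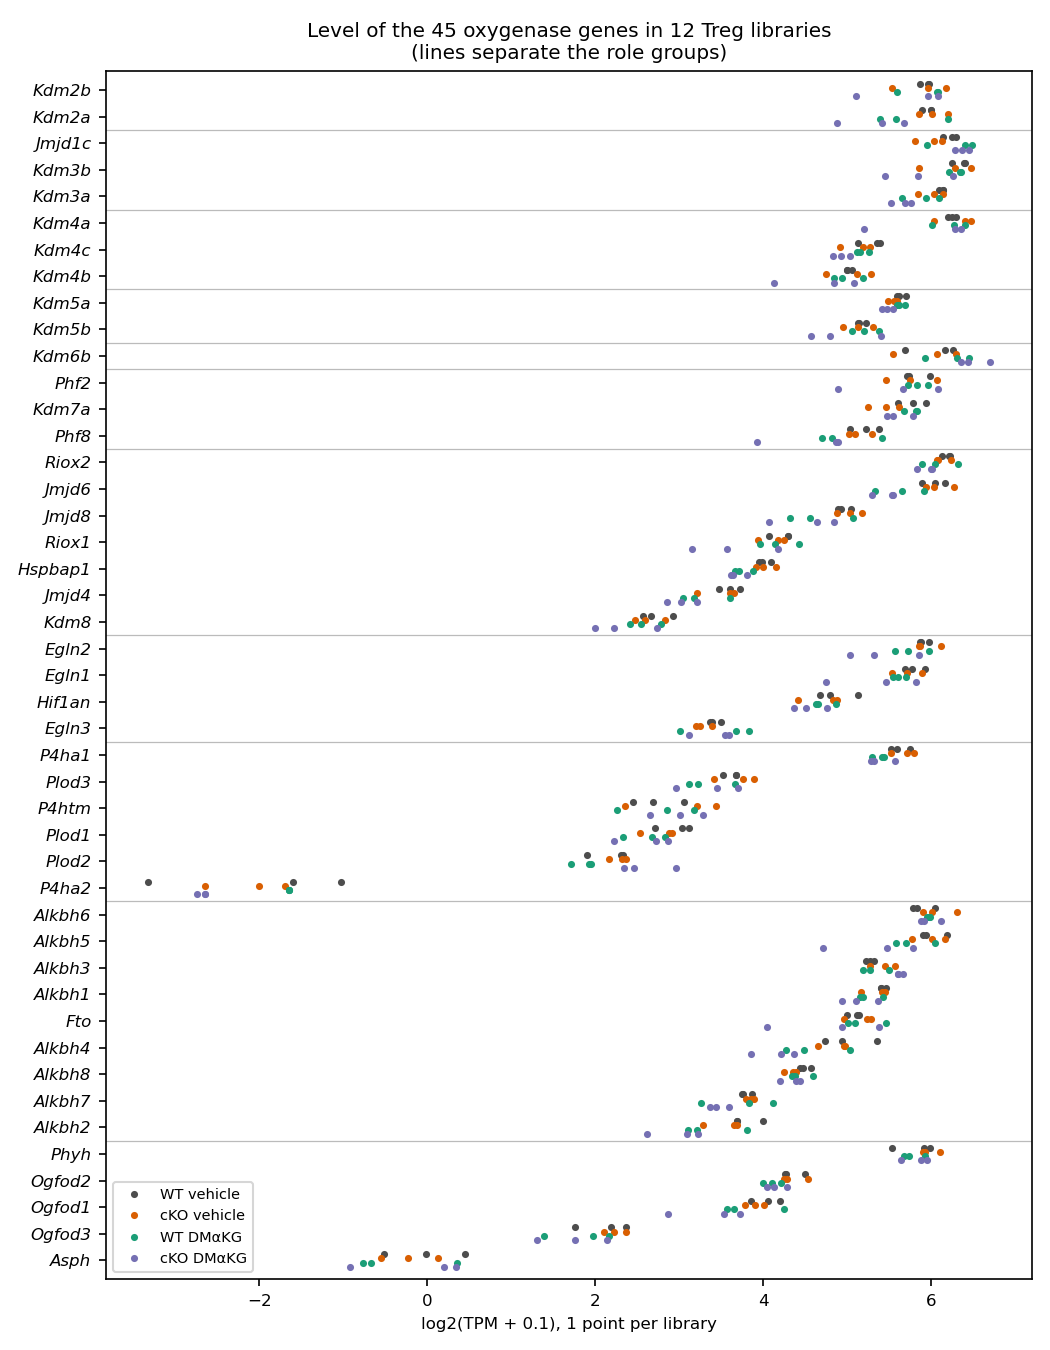
Level of each of the 45 members in the 12 libraries, by role, as log2(TPM + 0.1) (x axis), with 1 point per library coloured by group. Jmjd1c, Kdm6b, Kdm4a and Kdm3b lie at the top of the range and P4ha2 and Asph at the bottom, and the spread between libraries of a gene is small beside the spread between genes.

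Whether reads were counted by strand is not said in the labels or notes used here. The 15 members that lie over another listed gene are therefore uncertain where that gene is expressed: among those described below these are Kdm2a, Jmjd1c, Jmjd6, Jmjd4, Jmjd8, Riox1, Riox2 and Alkbh2. Levels below are in CPM, which is not corrected for length and is compared between libraries and not between genes. The libraries of a group are given in the order of their replicate numbers, 2 to 4 for vehicle and 1 to 3 for DMαKG.

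The first comparison asked what loss of Tkt did to the family in mice given vehicle. Against a background of 0.062% of genes past the threshold, 0 of 44 members passed it, and 0 had an unadjusted p below 0.05 where 7.29% of genes did. DESeq2 also called 0 members, with 0.775% of all genes called. Of the 44, 24 were higher in cKO (51.6% of all genes were) and 20 lower (48.4%), with a median log2 fold change of 0.01 (all genes, 0.0072). The 95% interval lay within a 2-fold change in either direction for 43 of the 44 members, and within a 1.5-fold change for 38. Libraries of the genotypes did not overlap for 4 members (9.09%), all higher in cKO, where 15.3% of genes did not overlap. By role, both KDM2 genes and 4 of 5 collagen and ER hydroxylases were higher in cKO, and all 3 KDM3 genes and 3 of 4 HIF hydroxylases were lower.

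The members with the smallest p were the following. Alkbh6, of the AlkB family, read 22.6, 25.0 and 20.8 CPM in WT and 30.3, 26.6 and 25.1 CPM in cKO, a log2 fold change of 0.26 (SE 0.12, edgeR adjusted p = 0.691). Every cKO library was above every WT library, by a narrow margin at the nearest pair. Phyh read 29.4, 36.4 and 38.1 CPM in WT and 41.9, 39.8 and 39.8 CPM in cKO, a log2 fold change of 0.23 (SE 0.11, edgeR adjusted p = 0.744), again without overlap. Without library 2 of WT, the low one, it was 0.12. Kdm7a read 231, 247 and 195 CPM in WT and 199, 192 and 168 CPM in cKO, a log2 fold change of -0.27 (SE 0.13, edgeR adjusted p = 0.69). The highest cKO library of Kdm7a lay above the lowest WT library. Alkbh8, which completes a wobble-base modification of tRNA, read 49.6, 52.2 and 54.8 CPM in WT and 46.0, 41.7 and 51.3 CPM in cKO (-0.17, SE 0.12, edgeR adjusted p = 0.869), and the genotypes overlapped. Without library 3 of cKO its log2 fold change was -0.11.

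The 5 members with the highest TPM did not pass in this comparison either. Kdm4a read 145, 146 and 143 CPM in WT and 168, 175 and 137 CPM in cKO, and Riox2 read 66.1, 67.0 and 66.7 against 68.7, 65.8 and 67.1 CPM. Riox2 was among the steadiest members between these 6 libraries. Kdm3b read 263, 253 and 227 CPM in WT and 269.7, 253 and 192 CPM in cKO, and the cKO values spanned the WT values. Kdm6b read 224, 201 and 144 CPM in WT and 189.7, 236 and 144 CPM in cKO, and Jmjd1c read 309, 283 and 261 against 246, 283 and 226 CPM. In both genes library 4 was the lowest of its group in each genotype.

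Between the genotypes given DMαKG, 0 of 44 members passed the threshold (0.186% of all genes did). Of the 44, 14 were higher in cKO (50% of all genes were) and 30 lower (50%), with a median log2 fold change of -0.07 (all genes, -0.00044). Without library 3 of cKO with DMαKG, which is described further on, 20 were higher and 24 lower, with a median of -0.03. Unadjusted p-values below 0.05 were found for 2 members, where 10.4% of genes had one: Plod2, higher in cKO, and Riox1, lower. Libraries did not overlap for 6 members, 4 higher and 2 lower, where 15% of genes did not overlap. All 4 HIF hydroxylases, all 3 KDM4 and all 3 KDM7 genes and 6 of 7 other JmjC genes were lower in cKO, and all 5 tested collagen and ER hydroxylases were higher.

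Plod2, which hydroxylates the telopeptide lysines from which collagen cross-links form (gene 26432, mm10 chromosome 9, 92539636 to 92608428), gave the smallest p of any member in any comparison. It read 6.04, 7.77 and 7.82 CPM in WT with vehicle, 8.23, 7.69 and 8.46 in cKO with vehicle, 6.68, 5.61 and 5.98 in WT with DMαKG and 14.1, 9.35 and 10.4 in cKO with DMαKG. The 3 cKO libraries with DMαKG were the 3 highest of all 12, and library 1 was the highest by a clear gap. Under DMαKG the means were 6.09 ± 0.542 CPM (SD, n = 3) in WT and 11.3 ± 2.48 CPM in cKO, a log2 fold change of 0.89 (SE 0.19, 95% interval 0.48 to 1.29). With unadjusted p = 0.000388 and adjusted p = 0.0981 by edgeR, Plod2 did not pass the threshold. Under vehicle its log2 fold change was 0.17 (SE 0.18). Averaged over both treatments, cKO exceeded WT by 0.53 (SE 0.13, 95% interval 0.25 to 0.81, edgeR adjusted p = 0.0859). Its adjusted p was below 0.05 with other tools, at 0.00535 in the DMαKG comparison and 0.0174 in the averaged comparison with DESeq2, and at 0.018 and 0.0118 with limma voom and sample quality weights. Those tools also called more genes in all, 1.11% and 3.08% with DESeq2 and 1.84% and 8.04% with limma voom. In the other edgeR fits the adjusted p of Plod2 under DMαKG ran from 0.0709 to 0.415. The highest came with Y-linked expression as a covariate, with a log2 fold change of 0.78. Without library 1 of cKO with DMαKG these were 0.277 and 0.72. Y-linked Ddx3y was at 0.518 and 0.509 CPM in libraries 1 and 3 of cKO with DMαKG. In library 3 of WT with vehicle, where Ddx3y was at 0.0555 CPM, Plod2 read 7.77 CPM.

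Fibroblasts and stromal cells also express Plod2. The sum of their 6 markers in the table was at 2.69 to 4.05 CPM in WT with DMαKG and at 4.45 to 6.80 CPM in cKO with DMαKG, without overlap. With vehicle it was at 2.71 to 4.83 CPM in WT and at 3.90 to 6.24 CPM in cKO. Most of the sum was Col1a2 and Col1a1. Col1a2 was at 1.93, 1.81 and 2.29 CPM in WT and 5.05, 4.44 and 2.73 CPM in cKO with DMαKG (1.01, SE 0.30, edgeR adjusted p = 0.267). Col1a1 was at 0.703, 1.08 and 1.65 CPM in WT and 1.68, 1.73 and 1.34 CPM in cKO with DMαKG, with overlap. Dcn, Col3a1, Pdgfra and Pdgfrb were below 0.3 CPM in every library. The part of such cells in the Plod2 difference was not tested. In bulk RNA such as this, fewer cells of a type and less RNA per cell cannot be told apart.

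The remaining members of note in this comparison were small in size. Riox1 read 17.2, 18.7 and 21.1 CPM in WT and 13.0, 18.8 and 11.2 CPM in cKO, a log2 fold change of -0.40 (SE 0.18, edgeR adjusted p = 0.448). The second cKO library of Riox1 lay inside the WT range, and the log2 fold change was -0.63 without it and -0.25 without the third. Kdm3b read 251, 267 and 245 CPM in WT and 194, 245 and 170.3 CPM in cKO (-0.33, SE 0.15, edgeR adjusted p = 0.482), without overlap but with nearly equal nearest libraries, and -0.21 without library 3 of cKO. Alkbh3, a repair enzyme for alkylated DNA and RNA, read 36.1, 38.4 and 34.7 CPM in WT and 41.2, 40.7 and 47.8 CPM in cKO (0.25, SE 0.12, edgeR adjusted p = 0.505), again without overlap.

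Averaged over both treatments, 0 of 44 members passed where 1.01% of all genes did, and 16 were higher in cKO (48.9% of all genes) and 28 lower (51.1%), with a median of -0.03 (all genes, -0.0048), which ran from -0.05 to -0.01 over the fits that left out 1 library. Beside Plod2, Phyh had an unadjusted p below 0.05 (12.8% of all genes did), with a log2 fold change of 0.19 (SE 0.08, edgeR adjusted p = 0.348). Under DMαKG Phyh read 35.0, 35.0 and 37.2 CPM in WT and 42.2, 37.9 and 39.2 CPM in cKO. These libraries did not overlap either, so that Phyh was higher in cKO in both treatments. The smallest p among members lower in cKO belonged to Alkbh2 (-0.28, SE 0.14, edgeR adjusted p = 0.446) and to Kdm7a (-0.17, SE 0.09, edgeR adjusted p = 0.47). Alkbh2 was low throughout, at 3.18 to 6.61 CPM.

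**Figure D2:**
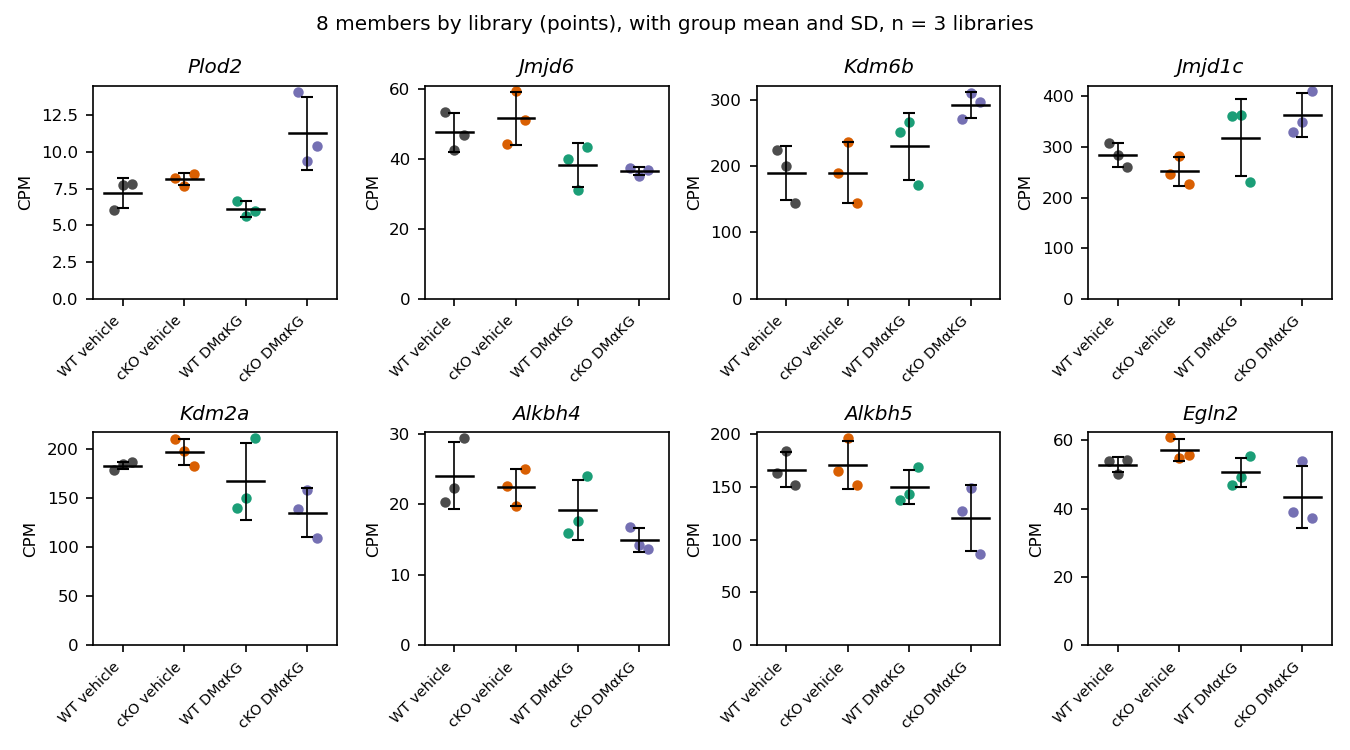
CPM of 8 named members in each library (points), with the mean and SD of each group of 3 libraries (bars). Plod2 is highest in cKO with DMαKG, Kdm6b and Jmjd1c are higher and Jmjd6, Kdm2a, Alkbh4, Alkbh5 and Egln2 lower in cKO with DMαKG than in cKO with vehicle, and 0 of these differences passed the adjusted threshold.

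The next comparison asked what DMαKG, a source of the family's own cosubstrate, did to transcripts of the enzymes in WT Tregs. The background was 0% of genes past the threshold (0 genes, with 2.73% below an unadjusted p of 0.05). Of the 44 members 0 passed, 18 were higher with DMαKG (49.8% of all genes) and 26 lower (50.2%), and the median log2 fold change was -0.07 (all genes, -0.0013). Without library 1 or 2 of the DMαKG group or library 4 of the vehicle group the median was -0.03. The 95% interval lay within a 2-fold change for 43 members and within a 1.5-fold change for 33. Libraries did not overlap for 3 members, 2 higher and 1 lower with DMαKG, where 8.45% of genes did not overlap. Of all members 1, Jmjd6, had an unadjusted p below 0.05.

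Jmjd6 (gene 107817, mm10 chromosome 11, 116837432 to 116843767, overlapping Mettl23) read 53.5, 42.4 and 46.9 CPM in WT with vehicle and 39.9, 31.1 and 43.3 CPM in WT with DMαKG. The log2 fold change was -0.32 (SE 0.15, edgeR adjusted p = 0.999), and the highest DMαKG library lay just above the lowest vehicle library. Without library 2 with DMαKG it was -0.20. Hspbap1, a JmjC protein, read 20.8, 21.6 and 20.1 CPM with vehicle and 18.8, 17.7 and 17.7 CPM with DMαKG (-0.21, SE 0.12, edgeR adjusted p = 0.999). Its groups did not overlap. The members higher with DMαKG that had the smallest p were Alkbh6, at 27.1, 25.5 and 24.2 CPM with DMαKG (0.17, SE 0.12), and Kdm6b, at 252, 266 and 172 CPM (0.28, SE 0.21). Both overlapped the vehicle libraries given above. Without library 4 with vehicle these were 0.11 for Alkbh6 and 0.12 for Kdm6b, and Kdm6b was at 0.16 and 0.45 without libraries 2 and 3 with DMαKG. Kdm6b and Jmjd1c were lowest of the group in library 3, where Jmjd1c read 362, 364 and 229.8 CPM over the 3 libraries. Without library 4 of each vehicle group and library 3 of WT with DMαKG, which lay together on the first principal component, 5 members and 7.35% of all genes had an unadjusted p below 0.05 in WT, and 0 members were called.

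In cKO Tregs the differences with DMαKG were more numerous at the unadjusted level than in WT, both among members and among all genes. The background was 0% of genes past the threshold (0 genes by edgeR). Below an unadjusted p of 0.05 were 14 of 44 members (31.8%), 5 higher and 9 lower, and 17.3% of genes. DESeq2 called 0 members here, with 2.98% of genes called. With quality weights, limma voom called 2, Alkbh5 (adjusted p = 0.045) and Kdm2a (0.0413), with 3.49% of genes. Of the 44, 10 were higher with DMαKG (50.4% of all genes) and 34 lower (49.6%), and the median log2 fold change was -0.15 (all genes, 0.0037). Leaving out library 2 or 3 of the vehicle group or library 1 of the DMαKG group gave medians of -0.09, -0.10 and -0.09. Libraries did not overlap for 17 members (38.6%), 6 higher and 11 lower, where 21.1% of genes did not overlap. All 7 of the other JmjC genes, all 3 KDM4, both KDM2, 7 of 9 AlkB and 3 of 4 HIF hydroxylase genes were lower, and the 10 higher members were spread over 8 of the 11 role groups.

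Among the demethylases, Kdm6b (gene 216850, mm10 chromosome 11, 69398508 to 69420367) read 189.7, 236 and 144 CPM in cKO with vehicle and 271, 310.1 and 297 CPM in cKO with DMαKG. Every DMαKG library was above every vehicle library, with a log2 fold change of 0.62 (SE 0.21, 95% interval 0.17 to 1.08, edgeR adjusted p = 0.196). Jmjd1c (gene 108829, mm10 chromosome 10, 67096351 to 67256326, overlapping Reep3) read 246, 283 and 226 CPM with vehicle and 329, 349 and 411 CPM with DMαKG, a log2 fold change of 0.53 (SE 0.17, edgeR adjusted p = 0.189). Here too the groups did not overlap. Kdm7a read 213, 238 and 234 CPM with DMαKG, above its 3 vehicle values given earlier (0.29, SE 0.13, edgeR adjusted p = 0.264).

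Kdm2a was on the lower side. It read 210.3, 197 and 183 CPM in cKO with vehicle and 139, 158 and 109 CPM with DMαKG, a log2 fold change of -0.54 (SE 0.16, edgeR adjusted p = 0.169), without overlap. In WT the same gene read 179, 184 and 186 CPM with vehicle and 139, 149.7 and 212 CPM with DMαKG, where 1 DMαKG library lay above all vehicle libraries. Phf8 read 96.0, 88.5 and 84.3 CPM with vehicle and 76.6, 73.3 and 45.2 CPM with DMαKG in cKO (-0.46, SE 0.19, edgeR adjusted p = 0.249), with library 3 far below the other two. Kdm4a read 168, 167 and 91.3 CPM in cKO with DMαKG, where library 3 was again the low one.

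Of the other JmjC proteins, Jmjd6 read 44.3, 59.4 and 51.0 CPM in cKO with vehicle and 37.4, 35.2 and 36.8 CPM with DMαKG. All DMαKG libraries lay below all vehicle libraries and close to each other, with a log2 fold change of -0.50 (SE 0.15, 95% interval -0.82 to -0.18, edgeR adjusted p = 0.163). Jmjd8 and Jmjd4 had log2 fold changes of -0.37 (SE 0.17) and -0.28 (SE 0.12) and unadjusted p-values of 0.0451 and 0.0437. Among the HIF hydroxylases, Egln2 read 60.9, 54.9 and 55.5 CPM with vehicle and 39.0, 53.9 and 37.2 CPM with DMαKG, a log2 fold change of -0.40 (SE 0.14, edgeR adjusted p = 0.204). Its groups did not overlap, although the highest DMαKG library came close to the lowest vehicle library.

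In the AlkB family, Alkbh4 (gene 72041, mm10 chromosome 5, 136136145 to 136141800) read 22.6, 19.7 and 25.0 CPM in cKO with vehicle and 16.8, 14.3 and 13.7 CPM with DMαKG, a log2 fold change of -0.59 (SE 0.19, edgeR adjusted p = 0.183). The m6A eraser Alkbh5 read 165, 196 and 152 CPM with vehicle and 127, 149 and 86.3 CPM with DMαKG (-0.50, SE 0.18, edgeR adjusted p = 0.204). Both were without overlap, and Alkbh5 was lowest by far in library 3, without which its log2 fold change was -0.31. Alkbh3 was on the higher side, with the values given above for cKO with DMαKG against 40.5, 30.7 and 35.2 CPM with vehicle (0.29, SE 0.12, unadjusted p = 0.0351). Plod2 was also higher with DMαKG in cKO (0.47, SE 0.18, edgeR adjusted p = 0.231), and Ogfod1 lower (-0.40, SE 0.17, unadjusted p = 0.0359).

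**Figure D3:**
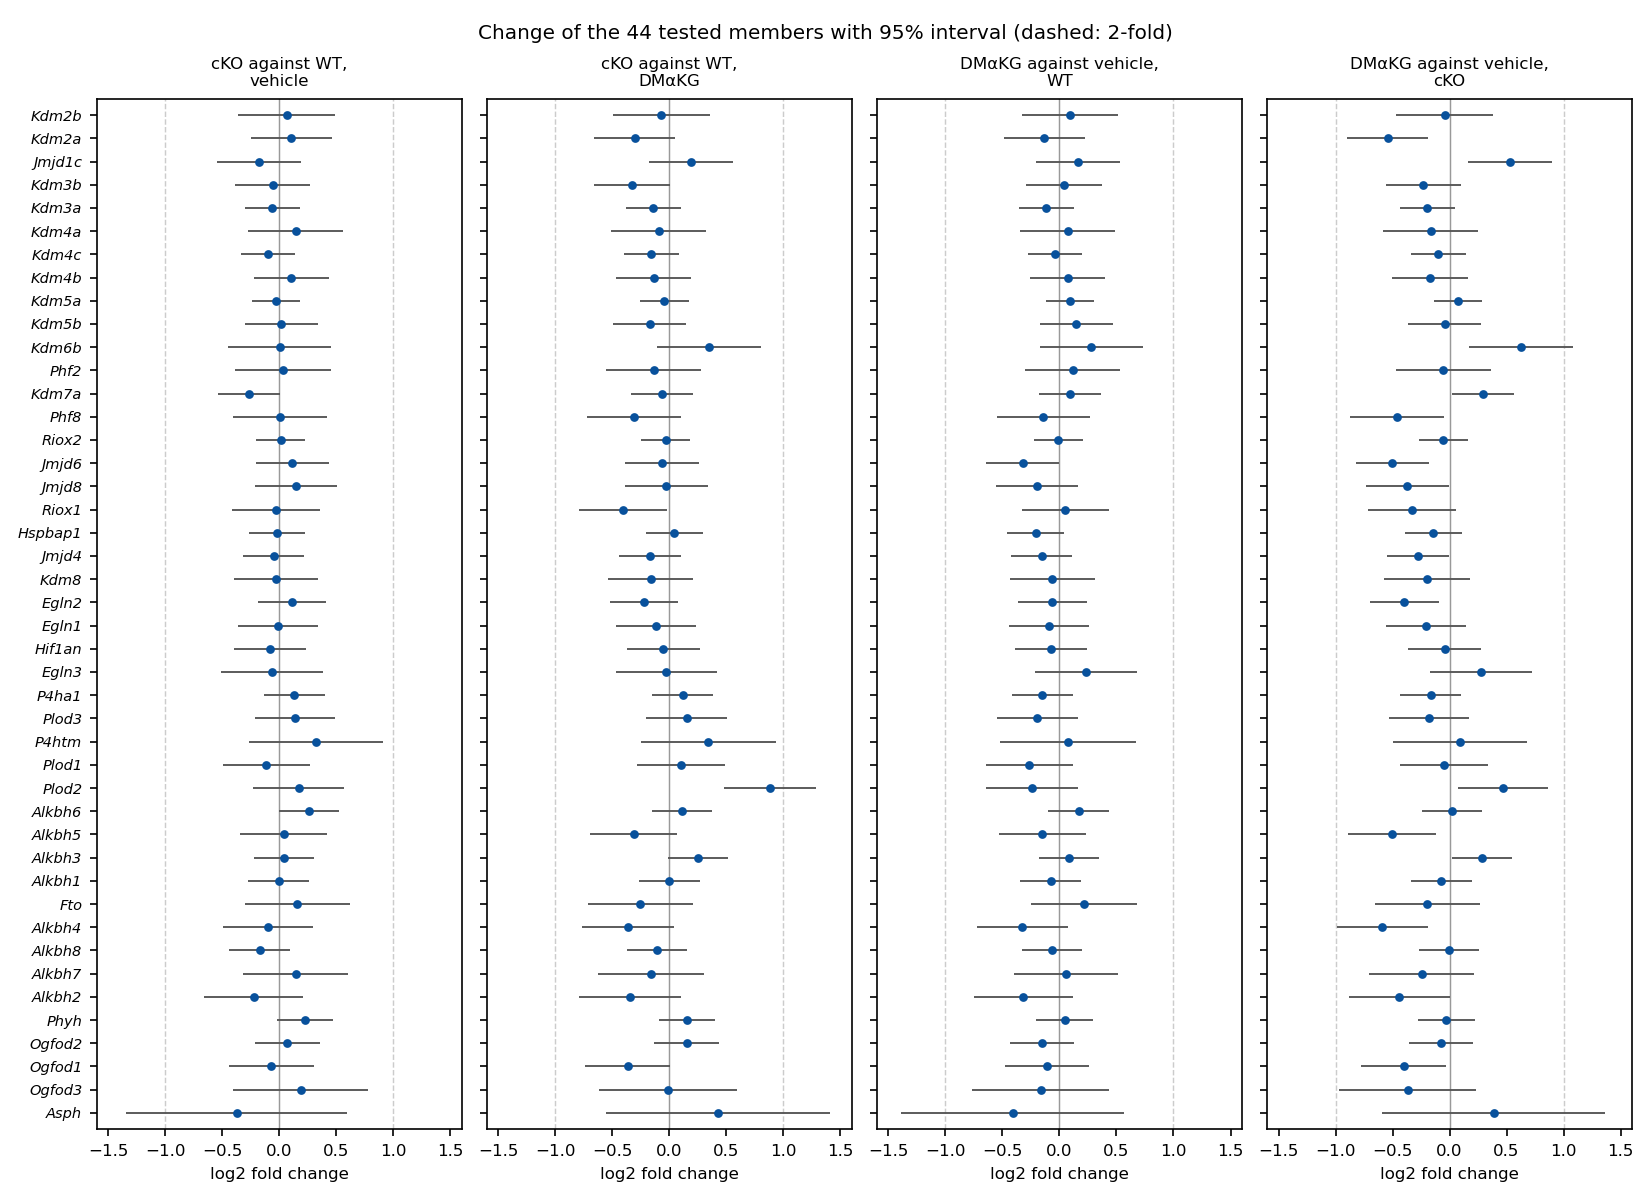
Log2 fold change (x axis) of the 44 tested members with 95% intervals in the 4 pairwise comparisons, by role, with dashed lines at a 2-fold change. In DMαKG against vehicle in cKO 34 of the 44 points lie below 0, and the intervals of 42 members stay within the dashed lines.

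Library 3 of cKO with DMαKG moved with these results. It was the lowest of the 12 libraries for 16 of the 44 members, against 0 to 7 for each of the others. Its log2 levels, as deviations from each gene's mean, had a slope of -0.285 per 10 percentage points of transcript GC content. The slope was fitted together with transcript length over the 12361 tested genes with a GC value. The slopes of the other libraries ran from -0.107 to 0.166. Its B and plasma cell markers summed to 161 CPM, against 77.8 to 100.4 CPM elsewhere. Without this library, 15 members were higher and 29 lower, the median was -0.10, and 6 members in place of 14 had an unadjusted p below 0.05, with 11.2% in place of 17.3% of all genes. Across the 44 members the log2 fold change of this comparison had a Spearman correlation of -0.325 with transcript GC content (-0.149 over all genes with a value), points that share the same libraries. With each library's trend on length and GC removed, a check chosen after the data were seen, the median was -0.12, with 13 members higher and 31 lower. Y-linked Ddx3y also moved with the groups: it was at 0.0555 CPM in library 3 of WT with vehicle, at 0.518 and 0.509 CPM in libraries 1 and 3 of cKO with DMαKG, and at 22.6 to 241 CPM elsewhere. With Y-linked expression as a covariate, 10 members were higher and 34 lower, the median was -0.10, and 1 member, Kdm2a, kept an unadjusted p below 0.05, with 5.27% of all genes.

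**Figure D4:**
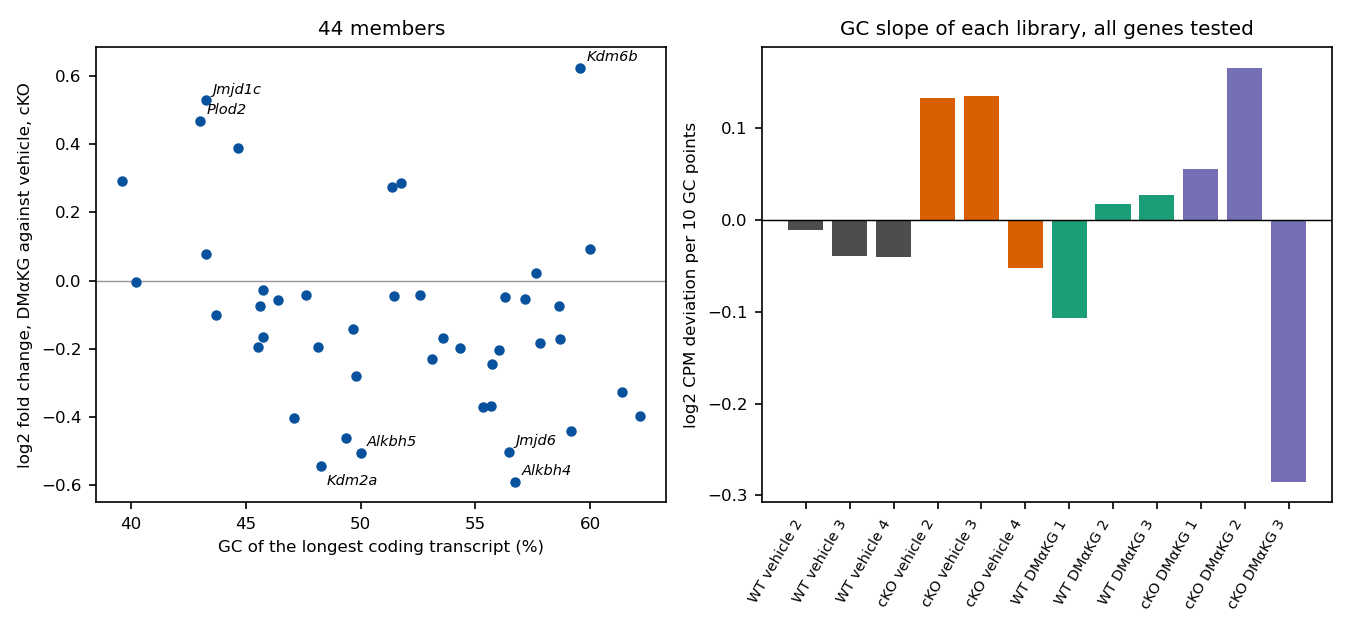
Left, log2 fold change of DMαKG against vehicle in cKO (y axis) against transcript GC content in percent (x axis), for the 44 tested members. Right, the slope on GC content of log2 level as deviation from the gene mean, fitted together with transcript length, in each of the 12 libraries. Library 3 of cKO with DMαKG is the lowest at -0.285 per 10 percentage points.

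**Figure D5:**
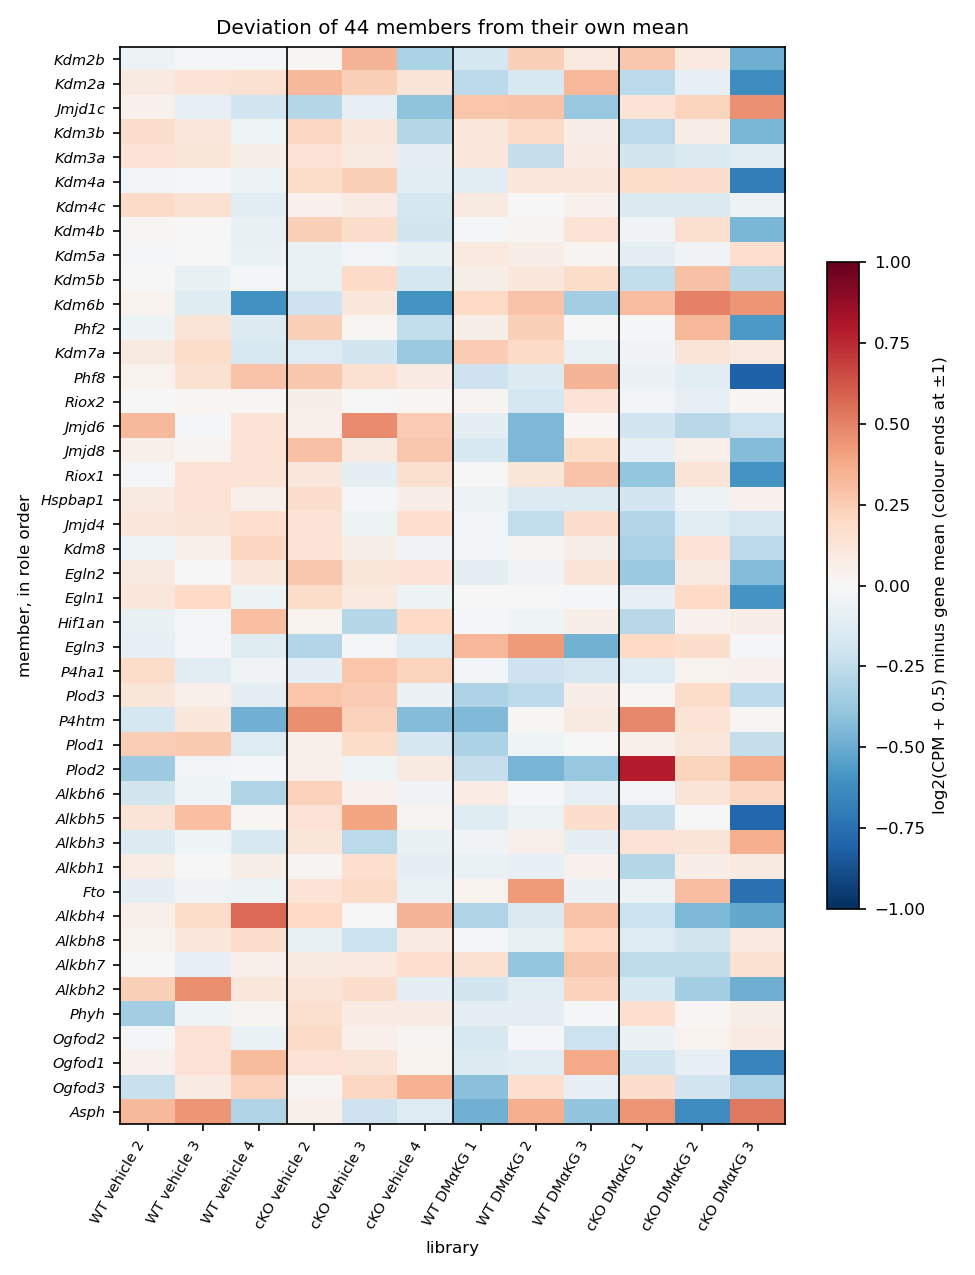
Log2(CPM + 0.5) of the 44 tested members (rows, by role) minus the mean of each gene, in the 12 libraries (columns), with the colour scale ending at 1 above and below. Library 3 of cKO with DMαKG holds the lowest value of 16 members.

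Averaged over both genotypes, 0 of 44 members passed (background 0.00775% of genes), 14 were higher with DMαKG (50.4% of all genes) and 30 lower (49.6%), and the median was -0.08 (all genes, 0.0019). Unadjusted p-values below 0.05 were found for 11 members (25%), 2 higher and 9 lower, where 15.9% of genes had one. The smallest p-values were those of Jmjd6 (-0.41, SE 0.10, edgeR adjusted p = 0.147) and Alkbh4 (-0.46, SE 0.13, edgeR adjusted p = 0.163) on the lower side. On the higher side they were those of Kdm6b (0.45, SE 0.15, edgeR adjusted p = 0.197) and Jmjd1c (0.35, SE 0.12, edgeR adjusted p = 0.218). All 7 of the other JmjC genes were lower with DMαKG. DESeq2 placed Jmjd6 past the threshold (adjusted p = 0.0301, with 2.67% of genes called), and limma voom with quality weights placed 8 members past it (12% of genes called). Without library 3 of WT with DMαKG edgeR called 4 members, Jmjd6, Alkbh4, Kdm2a and Jmjd1c, with adjusted p-values of 0.0351, 0.0307, 0.0311 and 0.028, and 4.72% of genes.

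Whether DMαKG acted differently in the genotypes was tested by the interaction, which shares its libraries with the comparisons above. The background was 0% of genes (0 genes by edgeR, with 3.64% below an unadjusted p of 0.05), and 0 of 44 members passed. The interaction was above 0 for 15 members (48.7% of all genes) and below 0 for 29 (51.3%), with a median of -0.11 (all genes, -0.0088). The median was between -0.05 and -0.07 without library 2 or 3 of cKO with vehicle, library 3 of WT with DMαKG, or library 1 or 3 of cKO with DMαKG. Plod2 had the smallest p, with an interaction of 0.71 (SE 0.26, 95% interval 0.15 to 1.28, unadjusted p = 0.0175, edgeR adjusted p = 0.955). With Y-linked expression as a covariate the interaction of Plod2 was 0.53 (edgeR unadjusted p = 0.119). Jmjd1c had 0.37 (SE 0.24), Kdm2a -0.41 (SE 0.23) and Egln2 -0.34 (SE 0.20), each with an edgeR adjusted p of 0.955. Without library 3 of WT with DMαKG these were 0.18 for Jmjd1c and -0.20 for Kdm2a, and without library 3 of cKO with DMαKG Kdm2a was at -0.27. The interval of the interaction lay within a 2-fold change for 40 members and within a 1.5-fold change for 15, so that differences of up to 1.5-fold lay inside the interval of most members.

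Promoter sequences of 37 of the 45 members were found in a RefSeq table of the GRCm38.p6 assembly, the patched form of mm10. Because some HIF hydroxylases and JmjC demethylases are known HIF targets, the 250 bases upstream of each start were searched for the core of the hypoxia-response element, ACGTG or GCGTG, on both strands, so that CACGT and CACGC also count and a CACGTG, which is also an E-box, counts as 2. At least 1 match was found for 24 of 37 members (64.9%) and for 53.9% of 14206 genes of the table with an entry. The upstream windows of Egln2, the HIF prolyl hydroxylase lower with DMαKG in cKO, and of Jmjd1c, a demethylase higher with it, are shown 5′ to 3′ on the gene's strand with matches in capitals. Both are the first entry of their gene. That of Egln2 is on the minus strand at chr7:27166803-27167052, just before the annotated gene, and that of Jmjd1c on the plus strand at chr10:67126838-67127087, inside the RefSeq span of the gene before an inner start. Neither window lies over a GENCODE exon.
Egln2: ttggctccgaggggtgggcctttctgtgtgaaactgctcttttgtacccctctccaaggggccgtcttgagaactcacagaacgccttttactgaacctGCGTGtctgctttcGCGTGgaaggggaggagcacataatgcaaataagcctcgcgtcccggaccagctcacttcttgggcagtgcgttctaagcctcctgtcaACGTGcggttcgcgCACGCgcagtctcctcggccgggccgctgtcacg
Jmjd1c: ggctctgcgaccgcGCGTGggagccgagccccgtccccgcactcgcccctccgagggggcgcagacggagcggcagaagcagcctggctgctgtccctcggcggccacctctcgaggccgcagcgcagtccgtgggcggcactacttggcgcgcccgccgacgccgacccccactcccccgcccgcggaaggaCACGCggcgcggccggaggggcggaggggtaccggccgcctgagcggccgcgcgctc
The Egln2 window held 4 matches and the Jmjd1c window 2. The other listed entry of each gene held 1 and 0. The windows of Egln1, Egln3 and Hif1an, the other HIF hydroxylases, held 2, 1 and 0. A match describes the letters and is no evidence of binding.

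Genes around the family were read from lists of partners, substrates and neighbouring enzymes. The TET dioxygenases, which oxidize 5-methylcytosine with the same cosubstrate, gave 0 of 3 past the threshold in every comparison. Tet2 read 85.6, 84.9 and 69.7 CPM in cKO with vehicle and 117, 109 and 141 CPM in cKO with DMαKG, without overlap (0.61, SE 0.15, edgeR adjusted p = 0.144). Tet3 was on the lower side (-0.44, SE 0.20, edgeR adjusted p = 0.285). Of 12 further oxygenases of the same kind outside the members, 9 were tested and 0 passed. Kdm6a, the X-linked relative of Kdm6b, read 109.9, 98.7 and 78.1 CPM in cKO with vehicle and 177, 134 and 174 CPM with DMαKG (0.76, SE 0.27, edgeR adjusted p = 0.207). Y-linked Ddx3y moved with it: the libraries with Ddx3y near 0 were those at 177 and 174 CPM, and the lowest Ddx3y library of each WT group was also its highest in Kdm6a, 164 CPM under vehicle and 192 CPM under DMαKG. Its part in the difference was not tested. Jmjd7, a JmjC protein, was higher in cKO than in WT under vehicle, at 15.6, 16.7 and 16.3 CPM against 14.0, 10.7 and 12.8 CPM (0.37, SE 0.15, edgeR adjusted p = 0.585). The flavin-dependent demethylases, which act on lysine 4 of H3 without 2-oxoglutarate, gave 0 of 2 past the threshold, with Kdm1b at -0.37 (SE 0.13) and Kdm1a at -0.26 (SE 0.13) with DMαKG in cKO.

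Within the HIF pathway 1 of 10 components passed, in the averaged genotype comparison, where 1.01% of all genes did. Hif3a, a HIF-α paralogue with inhibitory splice forms, read 2.94, 3.61 and 3.78 CPM in WT with vehicle, 11.5, 7.03 and 5.31 in cKO with vehicle, 3.98, 4.25 and 5.66 in WT with DMαKG and 10.04, 9.81 and 9.67 in cKO with DMαKG. In both treatments every cKO library was above every WT library. Hif3a rose in cKO by 1.15 (SE 0.18, edgeR adjusted p = 0.0122), with 1.21 under vehicle (adjusted p = 0.153) and 1.08 under DMαKG (adjusted p = 0.157). With the replicate number added to the fit as a block, Hif3a did not pass (edgeR adjusted p = 0.0909). Of 23 tested HIF target genes, 17 were higher and 6 lower in cKO in each treatment, with medians of 0.10 and 0.10. Of all genes 51.6% were higher in cKO under vehicle and 50% under DMαKG. In no comparison did a HIF target gene pass. Ddit4, a HIF target that restrains mTORC1, had a log2 fold change of -1.84 with DMαKG in cKO (SE 0.41, edgeR adjusted p = 0.132). Tpi1, a glycolytic enzyme, had 0.52 in cKO against WT under DMαKG (SE 0.19, edgeR adjusted p = 0.348).

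Of the collagens and their processing partners, the substrates and helpers of Plod and P4ha enzymes, 6 of 11 were tested. All 6 were higher in cKO in both treatments (51.6% and 50% of all genes were), with medians of 0.28 and 0.31. The stromal markers moved with them: both that could be tested, Col1a1 and Col1a2, are also on this list and were higher in cKO, with medians of 0.43 under vehicle and 0.74 under DMαKG, and the part of stromal cells was not tested. Of the collagen list 1 gene passed, in the averaged genotype comparison, where 1.01% of all genes did. Col5a1, a fibrillar collagen chain, rose by 1.97 (SE 0.38, edgeR adjusted p = 0.0302). It lay below 1 CPM in every library, with 0.0565, 0.222 and 0.210 and 0.176, 0.170 and 0.160 CPM in WT and 0.379, 0.659 and 0.928 and 0.971, 0.519 and 0.572 CPM in cKO, vehicle first. It did not pass in 9 of the 12 fits that left out 1 library, nor with the replicate number as a block (edgeR adjusted p = 0.0858).

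Writers and readers of m6A, whose mark Fto and Alkbh5 remove, gave 0 of 12 past the threshold in any comparison. They were mostly on the lower side: 11 of 12 were lower in cKO in each treatment, and 12 of 12 in WT and 10 of 12 in cKO were lower with DMαKG, with medians of -0.07, -0.22, -0.09 and -0.24. Of all genes 48.4%, 50%, 50.2% and 49.6% were lower in these comparisons. Mettl3, the catalytic writer, and Wtap, its partner, had log2 fold changes with DMαKG in cKO of -0.40 (SE 0.12) and -0.37 (SE 0.11), with edgeR adjusted p-values of 0.175 and 0.172. Of 19 histone lysine methyltransferases, which lay the marks the JmjC enzymes remove, 0 passed. Setdb1, a lysine 9 methyltransferase, had -0.50 with DMαKG in cKO (SE 0.15, edgeR adjusted p = 0.159), and Kmt2c, a lysine 4 methyltransferase, had -0.39 (SE 0.14, edgeR adjusted p = 0.207). Of 18 tested enzymes that make or use 2-oxoglutarate, 0 passed. Got1, the cytosolic aspartate aminotransferase, was higher in cKO than in WT under DMαKG (0.83, SE 0.20, edgeR adjusted p = 0.165) and with DMαKG than with vehicle in cKO (0.81, SE 0.20, edgeR adjusted p = 0.144). Idh2, the mitochondrial isocitrate dehydrogenase that yields 2-oxoglutarate, had 0.37 in cKO against WT under vehicle (SE 0.13, edgeR adjusted p = 0.52).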

How the data were processed

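RNA was sequenced from sorted Tregs in 12 libraries, 3 per group, with Trizol extraction and the NEBNext Ultra RNA kit, per the labels' protocols. Groups and replicate numbers came from the sample labels. HISAT2 2.0.5, DESeq2 1.16.1, featureCounts 1.5.0-p3 and the mm10 build stand in the submitters' processing notes without a role. The use of strand in counting was not given in the sources used here.

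The authors deposited 1 table of 17955 genes. The estimated counts that the authors deposited are reads per gene before any scaling. Among them 36% were not whole, and all were rounded for a count test planned for whole counts. The TPM values that the authors deposited, scaled by transcript length and library, were used for levels between genes, and the FPKM values that the authors deposited were not used. Coordinates came from a RefSeq table of GRCm38.p6 (17901 IDs matched).

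The count test was that of edgeR 4.0.16 (R 4.3.3): its expression filter left 12903 genes, and a quasi-likelihood fit with TMM scaling, 1 mean per group and 8 residual degrees of freedom was read against an adjusted p of 0.05. Robust estimation of the spread was adopted after the default fit had been run on these data, to follow an earlier analysis of them. It called 8, 24 and 130 genes (cKO against WT with vehicle, with DMαKG and averaged), where the default called 3, 9 and 126, and members called were 0 with both. The main edgeR fit, and none of the alternatives, was also run on simulated counts. These had a common spread for all genes and changes in cKO with vehicle only. They held no GC trend and no outlying library, so they cannot speak to those features. Nothing says that samples of a group were handled separately beyond the 3 mice per group of the design text.

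The members, lists and tests were chosen with earlier results of these data known. Members are named if past the threshold, if among the 2 per direction with the smallest p in a comparison, if among the 5 highest by TPM, or if the groups of a pairwise comparison did not overlap and their log2 fold change was 0.5 or more in size. Of each related list, called genes are named, or else up to 2 with the smallest p. Phf8, Jmjd4, Jmjd8 and Ogfod1, the length and GC check, the motif and the printed promoters were chosen after values were seen. The alternatives were DESeq2 1.42.0 (its size factors and its Wald test), limma 3.58.1 voom with sample quality weights, no filter or at least 1 CPM in 6 libraries, the groups compared alone, the replicate number as a block, a Y-linked covariate, and leaving out 1 library or the 3 at one end of the first principal component. Added after seeing the data were edgeR without robust estimation and removal of each library's length and GC trend, also with the block.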

Additional observations from a re-analysis of the deposited data

How the results depend on the processing

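The count of members past the threshold was 0 in all 7 comparisons and stayed at 0 under every alternative run, apart from the following, whose cause was not tested. With DESeq2's Wald test it was 1 for cKO against WT with DMαKG (1.11% of all genes called). It was also 1 for cKO against WT averaged (3.08%) and 1 for DMαKG averaged (2.67%). With limma voom and sample quality weights it was 1 for cKO against WT with DMαKG (1.84% of all genes). For DMαKG in cKO it was 2 (Alkbh5, adjusted p = 0.045, and Kdm2a, 0.0413, with 3.49% of all genes). It was 3 for cKO against WT averaged (8.04% of all genes) and 8 for DMαKG averaged (12%). With the length and GC trend removed it was 1 for cKO against WT averaged (Plod2, adjusted p = 0.0455, with 1.56% of all genes). Over the fits that left out 1 library each, it ran from 0 to 4 for DMαKG averaged, and the fit with 4 called 4.72% of all genes. The median log2 fold change of the members kept its sign under all alternatives in 6 comparisons, and in cKO against WT with vehicle, where it was 0.01, it ran from -0.0022 with the Y-linked covariate to 0.07. For DMαKG in cKO it ran from -0.18 to -0.09. With the replicate block it was -0.16 there and -0.13 for DMαKG averaged, 5 and 3 members had an unadjusted p below 0.05 in place of 14 and 11 (10% and 6.61% of all genes), and the adjusted p of Plod2 under DMαKG was 0.24. For genotype the block matched numbers within a treatment. For DMαKG it matched numbers across treatments, where vehicle held 2 to 4 and DMαKG 1 to 3. Number 4 of vehicle and number 1 of DMαKG thus had no partner in the other treatment. The labels do not say whether the numbers pair the libraries. Correlations of same-numbered libraries within a treatment ran from -0.28 to 0.466, and those of differently numbered ones from -0.423 to 0.409. Across treatments within a genotype they ran from -0.217 to 0.234 for the same number and from -0.347 to 0.434 for different numbers. With 3 libraries per group these values cannot decide it. With the block Hif3a (adjusted p = 0.0909) and Col5a1 (0.0858) did not pass in the averaged genotype comparison, and Col5a1 also did not pass without the 3 libraries at one end of the first principal component (0.145). Hif3a passed in all 12 fits without 1 library, with log2 fold changes of 0.96 to 1.26. Col5a1 was not tested with the filter of 1 CPM in 6 libraries. The 95% intervals lay within a 1.5-fold change for 15 members in the interaction, for 25 with DMαKG in cKO and for 29 to 40 of the 44 in the other comparisons.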
